A study of Arabidopsis thaliana with 36 samples.

Results

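Transcripts of 10 Arabidopsis thaliana genes were followed, 6 heat shock transcription factors and 4 chaperones, out of 16283 genes in the table. They were chosen by gene identifier: HSFA2 (AT2G26150), HSFA6B (AT3G22830), HSFA7A (AT3G51910), HSFB1 (AT4G36990), HSFB2A (AT5G62020), HSFB2B (AT4G11660), HSP70 (AT3G12580), Hsp70-2 (AT5G02490), HSP101 (AT1G74310) and HSP90.1 (AT5G52640). All 10 had a row in the table, and several were at 0 in some of the 36 libraries. Wild-type Columbia-0 seedlings, 7 d old, were kept in water or in 30% polyethylene glycol (PEG, an osmoticum that withdraws water) with salicylhydroxamic acid (SHAM, which blocks lipoxygenases and the alternative oxidase) for 1, 2 or 3 h. The PEG solution had an osmotic pressure of -2.0 MPa, each biological replicate pooled 30 to 50 seedlings, and roots and shoots were separated after treatment. Plants had been grown at 21 °C on medium with sucrose under 16 h of light and 8 h of dark. The SHAM concentration is 1 mM in the sample labels and 0.1 mM in the treatment protocol. Each tissue had 3 groups under PEG with SHAM and 3 sets kept in water for 1 h, named here S0, PS0 and PH0 by how their titles begin. Every one of the 12 groups had 3 libraries. The design text names a 0 h point instead. The treated libraries were compared with PS0, which shares their prefix. Treatments with PEG alone or SHAM alone, and water at 2 h or 3 h, were not analysed here. What PEG, SHAM and time in solution each contributed cannot be told apart.

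Heat shock factors are transcription factors that bind heat shock elements, alternating repeats of the letters GAA and TTC, in the promoters of chaperone genes. Class A factors carry an activation domain. Class B factors lack it, and HSFB1 and HSFB2B are known in Arabidopsis as repressors of heat-inducible genes under non-heat conditions. Their targets include HSP70 chaperones, which hold unfolded proteins, HSP90 chaperones, which mature client proteins, and HSP101, which pulls proteins out of aggregates together with HSP70 and small heat shock proteins. The same network is known to respond to osmotic stress and abscisic acid.

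Heat shock elements in the members' promoters are shown first, because they are the sequence that heat shock factors read. Windows of 250 bases before to 50 bases after each gene start were read from the RefSeq TAIR10.1 genome and searched on both strands. A match of 2 units was GAANNTTC or TTCNNGAA, where N is any base. A match of 3 units was GAA, TTC and GAA, or TTC, GAA and TTC, with any 2 bases between neighbouring units, so it contains a pair of overlapping matches of 2 units. Each pattern of 2 units reads the same on both strands, and the 3-unit patterns are each other's reverse complement. A match of 2 units was present in 5 of the 10 windows and in 19.3% of the 27443 protein-coding promoters, and one of 3 units in 3 of the 10 and in 0.481%. Positions are bases from the annotated start, on the gene's strand. The HSP70 element lies just after the start, bases 21 to 33, at chr3:3993845-3993874 (minus strand). HSFA2 has its 3-unit element at -88 to -76, chr2:11135528-11135557 (plus strand), and further 2-unit matches at -33 to -26 and at 7 to 14, which are not printed. HSFA7A has 1 at -192 to -180, chr3:19264941-19264970, and 1 at -142 to -130, chr3:19264991-19265020 (both plus strand). HSFB1 has a 2-unit match at -1 to 7, chr4:17440165-17440194 (plus strand), and HSP101 has one at 30 to 37, chr1:27940322-27940351 (minus strand). The 30 bases around each 3-unit match, and around the 2-unit matches of HSFB1 and HSP101, are printed 5′ to 3′ on the gene's strand. Their GAA and TTC units are in capitals.
HSP70: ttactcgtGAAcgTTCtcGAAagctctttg
HSFA2: ttagtaacGAAgtTTCtgGAAcattgtctt
HSFA7A, distal: ttacgaagTTCcaGAAgtTTCgactattcg
HSFA7A, proximal: aaaaccgtTTCcaGAAgtTTCtaatttcta
HSFB1: tttctgagaatTTCtaGAAacagcatccgt
HSP101: ataaaataagcGAAaaTTCcacgtgacatc
The windows of HSFA6B, HSFB2A, HSFB2B, Hsp70-2 and HSP90.1 held neither pattern.

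**Figure D1:**
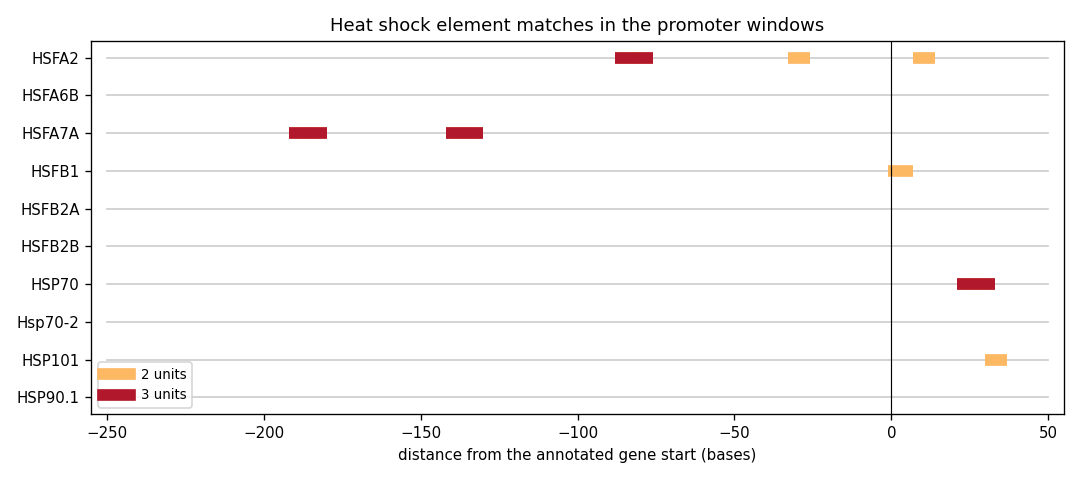
Position of each match (x axis, bases from the annotated gene start) in the promoter windows of the 10 genes (rows). Red bars are 3-unit matches, in HSFA2, HSFA7A and HSP70, and orange bars are 2-unit matches outside them. The other 5 rows are empty.

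Depth, recovered as whole reads, ran from 161.7 to 7181.5 kiloreads per library, with 5 libraries under 600 kiloreads. The tissue labels matched the markers: 6 root markers summed to between 467.5 and 1558.9 normalized counts in root libraries and between 3.2 and 39.5 in shoot libraries. The 7 shoot markers, of photosynthesis, summed to between 61677.9 and 117928.2 in shoots and between 121.3 and 1688.9 in roots, the highest being the 1 h root replicate 2. The root markers moved with treatment, from between 1012.1 and 1171.0 in PS0 roots to between 467.5 and 506.2 at 3 h, and the shoot markers of shoots went from between 97887.3 and 103443.2 to between 61677.9 and 73685.7. Their part in the members' results was not tested. In bulk tissue fewer cells of a type and less RNA per cell cannot be told apart. Among the root water libraries PS0 replicate 2 stood apart in transcripts of small heat shock proteins, and results that rest on it are also given without it. Tests are limma's moderated tests on log2 of the deposited normalized count plus 1, adjusted by Benjamini-Hochberg over all tested genes of the tissue, and a gene is called at an adjusted p under 0.05. A gene was tested where it reached 5 in at least 3 libraries of the tissue: 8 members passed in roots and 6 in shoots.

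**Figure D2:**
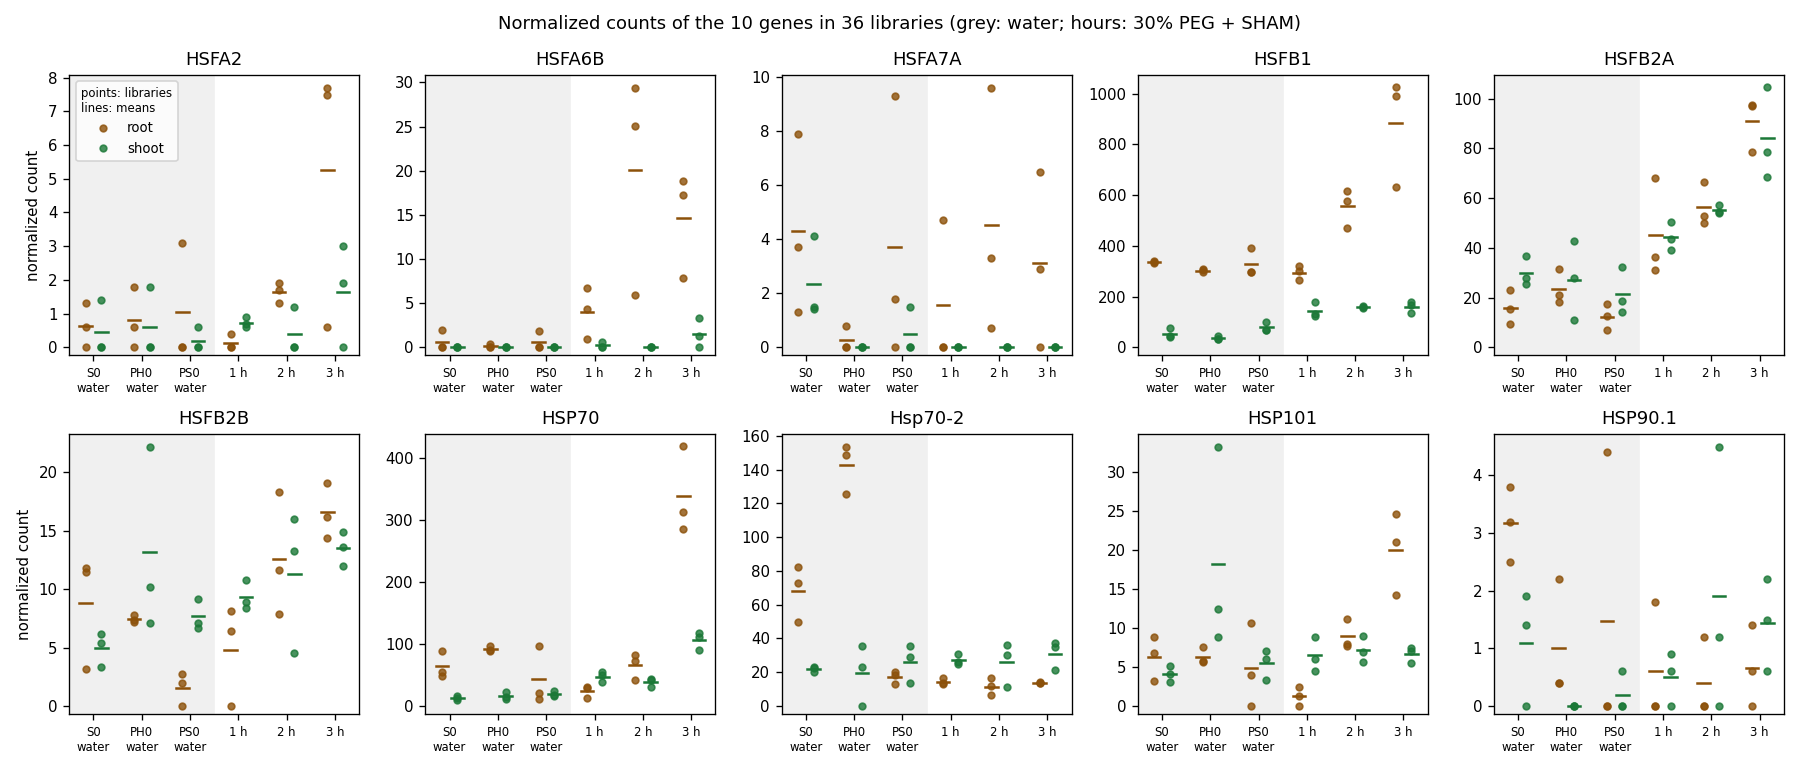
Normalized counts (y axis, linear, own scale per gene) of the 10 genes in every library, by group (x axis). Brown points are root and green points shoot libraries, short lines are means of 3, and grey marks water. HSFB1 and HSP70 reach their highest values in 3 h roots, HSFB2A reaches its own, 104.7, in a 3 h shoot library, and HSFA2, HSFA7A and HSP90.1 stay under 10 in every library.

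In roots the number of members called higher than PS0 water was 1 at 1 h, 2 at 2 h and 6 at 3 h. None was called lower by limma, edgeR or DESeq2, and 0 were lower at an unadjusted p under 0.05 in limma. The first to rise was HSFB2A, HSFA6B was also higher from 2 h, and HSFB1, HSFB2B, HSP70 and HSP101 were higher at 3 h. The share of all 11950 tested root genes called higher was 0.837% at 1 h, 1.78% at 2 h and 3.49% at 3 h. The median log2 change of the 8 tested members was -0.20, 1.21 and 2.64 at these times, beside -0.12, -0.10 and -0.16 over all tested genes. Without HSFA6B, which passed the filter on low values through treated libraries alone, 1, 1 and 5 of 7 members were called higher and the medians were -0.25, 1.08 and 2.41. In shoots no member was called at 1 h, with 3 at an unadjusted p under 0.05, and 2 were called with either edgeR or DESeq2. HSFB1 and HSFB2A were higher at 2 h, and these and HSP70 at 3 h. Of the 10459 genes tested in shoots 0.650%, 4.36% and 6.66% were called higher at 1, 2 and 3 h.

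**Figure D3:**
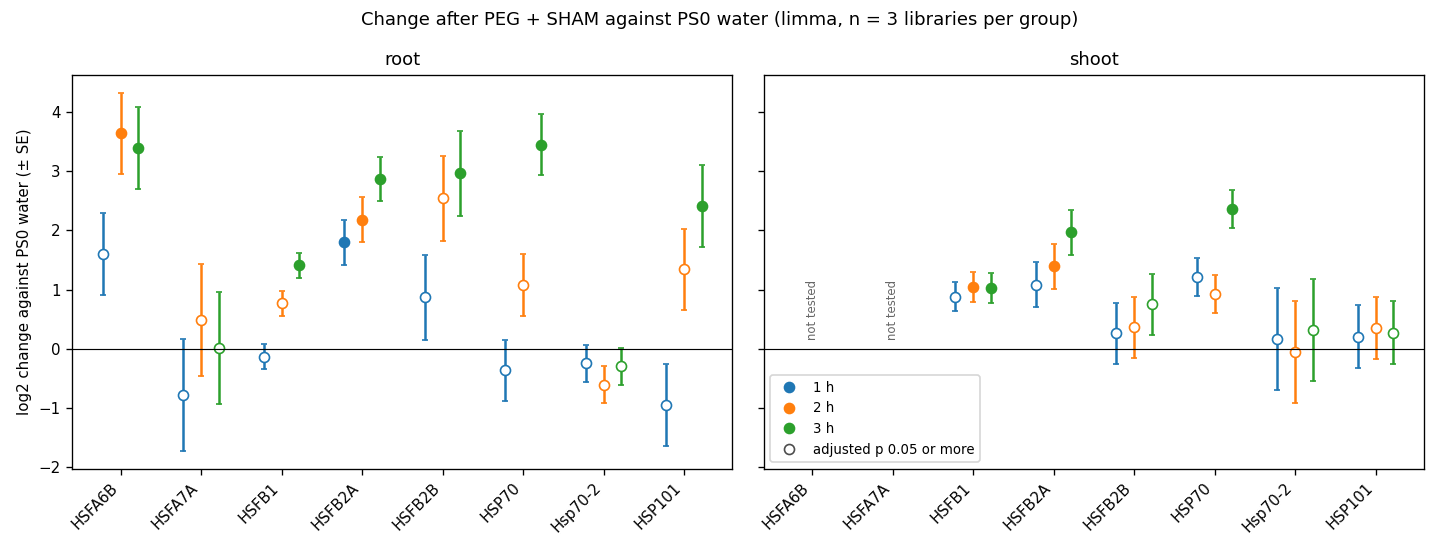
log2 change against PS0 water (y axis, ± SE, n = 3 libraries per group) of the tested members (x axis) in roots and shoots at 1 h (blue), 2 h (orange) and 3 h (green). Filled points were called and open points were not. In roots HSFA6B, HSFB2A, HSP70 and HSFB2B reach the highest values, and in shoots HSP70 at 3 h, at 2.36.

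HSFA6B, a class A factor that abscisic acid induces in Arabidopsis, was close to absent from water and from shoots. In PS0 roots it had 0, 1.8 and 0 normalized counts, in S0 roots 1.9, 0 and 0, and in PH0 roots 0, 0.4 and 0. Under treatment the root libraries held 6.7, 4.3 and 0.9 at 1 h, 5.9, 25.1 and 29.4 at 2 h, then 7.9, 18.8 and 17.3 at 3 h. Every 2 h and 3 h root library was above every water library, and 1 library of 1 h was not. The log2 change was 3.64 ± 0.69 at 2 h (adjusted p = 0.00487) and 3.39 ± 0.69 at 3 h (adjusted p = 0.00473), and at 1 h it was 1.60 ± 0.69 (adjusted p = 0.233). Given how it passed the filter, HSFA6B could hardly be tested without differing. The PS0 libraries held 2 HSFA6B reads in all, against 106 at 2 h and 64 at 3 h. Per unit of depth that is a ratio of 26 at 2 h, with an exact 95% counting interval from 7.01 to 217.2, and of 16.5 at 3 h, from 4.39 to 139.2. Intervals cover counting error only. Shoots listed HSFA6B at 0 in all 9 water libraries and at 3.3 or less in the treated ones, and it was not tested there.

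HSFA2, the heat-induced activator that prolongs the heat response, was low everywhere and did not pass the filter in either tissue. At 3 h the root libraries had 7.5, 0.6 and 7.7 normalized counts of HSFA2, and PS0 roots had 0, 0 and 3.1. A pair of the 3 h libraries was above all other libraries, and the other lay within the range of water. In reads this was 25 HSFA2 reads against 1 in PS0, a ratio of 12.9 with a counting interval from 2.11 to 529.5. The 3 h libraries held 16, 1 and 8 of these reads, a spread that the interval does not cover. S0 and PH0 roots held 3 and 5 HSFA2 reads. HSFA7A, another heat-induced class A factor, passed the filter in roots alone, with PS0 values of 0, 1.8 and 9.3 and 3 h values of 0, 6.5 and 2.9. Its root log2 change at 3 h was 0.01 ± 0.95 (adjusted p = 0.998), and its groups overlapped at each time. In treated shoots all 9 libraries listed HSFA7A at 0. Both genes have 3-unit elements in the sequences above, as HSP70 has.

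Among the class B factors HSFB1 rose in both tissues. In PS0 roots it had 296.6, 390.4 and 295 normalized counts, at 1 h 264.4, 319.9 and 299.9, at 2 h 471.9, 617.8 and 578, then at 3 h 991.7, 1025.1 and 632.7. The 1 h root libraries lay within or below the range of water, and every library of 2 h and 3 h lay above it. The log2 change in roots was -0.14 ± 0.21 at 1 h (adjusted p = 0.796), 0.77 ± 0.21 at 2 h (adjusted p = 0.0612) and 1.41 ± 0.21 at 3 h (adjusted p = 3.46e-04). Between 1 h and 3 h of treatment HSFB1 rose by 1.55 ± 0.21 in roots (adjusted p = 4.60e-04). Fitting only the compared groups gave an adjusted p of 0.149 for that last comparison.

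In shoots HSFB1 was already above the PS0 libraries at 1 h in every library. PS0 shoots had 67, 101 and 67.8 normalized counts, 1 h 132.3, 124.3 and 178.2, 2 h 156.7, 157.1 and 164.5, and 3 h 133.7, 178.4 and 168. The treated shoot libraries did not overlap with water at any time, and the later groups lay within about the same range as 1 h. The log2 change was 0.88 ± 0.25 at 1 h (adjusted p = 0.144), 1.04 ± 0.25 at 2 h (adjusted p = 0.0102) and 1.03 ± 0.25 at 3 h (adjusted p = 0.00745). Between 1 h and 3 h the shoot difference was 0.15 ± 0.25 (adjusted p = 0.866). The 2 h call was lost without shoot PS0 replicate 1 (adjusted p = 0.0518) and under TMM scaling (0.0576).

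HSFB2A, a class B factor known in Arabidopsis for a role in gametophyte development, rose in roots at all 3 times. PS0 roots had 17.2, 7.1 and 12.4 normalized counts, 1 h 36.3, 68.2 and 31.1, 2 h 49.9, 66.5 and 52.9, and 3 h 97, 97.3 and 78.6. No treated root library overlapped with PS0, and at 3 h all lay above the 1 h and 2 h libraries. The log2 change of HSFB2A was 1.80 ± 0.38 at 1 h (adjusted p = 0.0222), 2.18 ± 0.38 at 2 h (adjusted p = 0.00254) and 2.87 ± 0.38 at 3 h (adjusted p = 8.78e-05). The 1 h call was lost without root PS0 replicate 2 (adjusted p = 0.0907) or 3 (0.0578), without the 1 h replicate 2 (0.0575), which holds the most shoot markers of the root libraries, and when only the compared groups were fitted (0.664).

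In shoots HSFB2A had 14.1, 32.2 and 18.5 normalized counts in PS0, 39.1, 43.4 and 50.4 at 1 h, 54.2, 53.9 and 57.1 at 2 h, then 78.7, 68.5 and 104.7 at 3 h. The 4 shoot groups did not overlap with each other. The log2 change was 1.08 ± 0.38 at 1 h (adjusted p = 0.365), 1.39 ± 0.38 at 2 h (adjusted p = 0.0264) and 1.97 ± 0.38 at 3 h (adjusted p = 0.00138). The 2 h call was lost under TMM scaling (adjusted p = 0.101), when only the compared groups were fitted (0.0662), without shoot PS0 replicate 1 (0.132), and without 2 h replicate 1 (0.0647), 2 (0.065) or 3 (0.0764).

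HSFB2B, the partner of HSFB1 in repression, was called in roots at 3 h. PS0 roots held 2, 2.7 and 0 normalized counts, 1 h 8.1, 0 and 6.4, 2 h 7.9, 18.3 and 11.6, and 3 h 19.1, 16.2 and 14.4. The 2 h and 3 h libraries were all above PS0, while the S0 roots, with 11.8, 3.2 and 11.5, overlapped with 2 h. The log2 change of HSFB2B at 3 h was 2.97 ± 0.72 (adjusted p = 0.0173) and at 2 h 2.54 ± 0.72 (adjusted p = 0.0702). The call was lost without root PS0 replicate 3 (adjusted p = 0.0903), without 3 h replicate 1 (0.062) or 2 (0.0592), and against the S0 and PH0 libraries (log2 change 1.02, adjusted p = 0.24). In shoots HSFB2B had 7.1, 9.2 and 6.7 in PS0 and 14.9, 13.6 and 12 at 3 h, a log2 change of 0.75 ± 0.52 (adjusted p = 0.381).

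HSP70, a heat-inducible cytosolic HSP70, rose late in roots. PS0 roots had 12.1, 96.5 and 21.7 normalized counts, 1 h 13.5, 29.9 and 28.9, 2 h 42.7, 82.9 and 73.2, and 3 h 418.4, 284.6 and 312.5. All 3 h libraries were above every other root library, and the 1 h and 2 h libraries lay within the range of PS0, which PS0 replicate 2 sets. The log2 change of HSP70 was -0.37 ± 0.52 at 1 h (adjusted p = 0.783), 1.08 ± 0.52 at 2 h (adjusted p = 0.338) and 3.45 ± 0.52 at 3 h (adjusted p = 3.46e-04). From 1 h to 3 h it rose by 3.82 ± 0.52 (adjusted p = 4.60e-04). Without root PS0 replicate 2 the change was 4.28 at 3 h (adjusted p = 8.00e-06), and at 2 h it was 1.91 and called (adjusted p = 0.0144). Leaving out the highest PS0 library could only raise these changes. For HSP70 that library did not stand apart from the other water sets, as PH0 roots had 96.3, 90.5 and 89.4 and S0 roots 48.9, 55.4 and 87.9.

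In shoots HSP70 had 24.7, 18.4 and 16.8 normalized counts in PS0, 54.2, 38.2 and 49.8 at 1 h, 41.5, 31.4 and 43.4 at 2 h, then 117.3, 110.5 and 89.5 at 3 h. Every treated shoot library was above water, the 1 h and 2 h libraries overlapped, and the 3 h libraries stood above both. The log2 change was 1.21 ± 0.32 at 1 h (adjusted p = 0.105), 0.93 ± 0.32 at 2 h (adjusted p = 0.0764) and 2.36 ± 0.32 at 3 h (adjusted p = 3.22e-05). Between 1 h and 3 h the change was 1.15 ± 0.32 (adjusted p = 0.0365), and this call was lost without any 1 of the 6 shoot libraries compared, with adjusted p from 0.0681 without 1 h replicate 1 to 0.175 without 1 h replicate 2.

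PS0 root replicate 2, a water library, also held small heat shock protein transcripts, a point noticed after the values were seen. It was above the other 8 root water libraries for 5 of the 9 small heat shock proteins in the table, and above all 17 other root libraries for 4 of them. The sum over these 9 genes was 687.1 normalized counts in that library, 47.6 and 83.7 in PS0 replicates 1 and 3, and between 41.5 and 82.1 in S0 and PH0 roots. At 3 h the sum was 252.8, 265.2 and 335.6, and HSP17.8-CI alone reached 224.3. Against PS0 the median log2 change of the 9 genes at 3 h was -0.41, beside -0.16 over all genes. Against S0 and PH0 water it was 1.28, beside -0.36. In each contrast 2 of the 9 were called higher, beside 3.49% and 8.08% of all tested root genes. For single genes, HSP17.4 had 177.1 in PS0 replicate 2 against 1 and 6.2 in the other PS0 roots, HSP17.6C-CI 123.9 against 3 and 3.1, and HSP17.6A 129.3 against 2 and 0. In the 17 other root libraries these genes reached at most 12.6, 11 and 12.8. HSFA2 was at 0 in PS0 replicate 2 and HSP101 at 10.6, its highest value in water roots. Without PS0 replicate 2 the 6 root members called at 3 h were still called, with log2 changes of 3.89 for HSFA6B, 1.54 for HSFB1, 2.55 for HSFB2A, 3.33 for HSFB2B, 4.28 for HSP70 and 3.20 for HSP101. For each of these except HSFB2A it was the highest PS0 root library, so leaving it out could only raise the change.

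**Figure D4:**
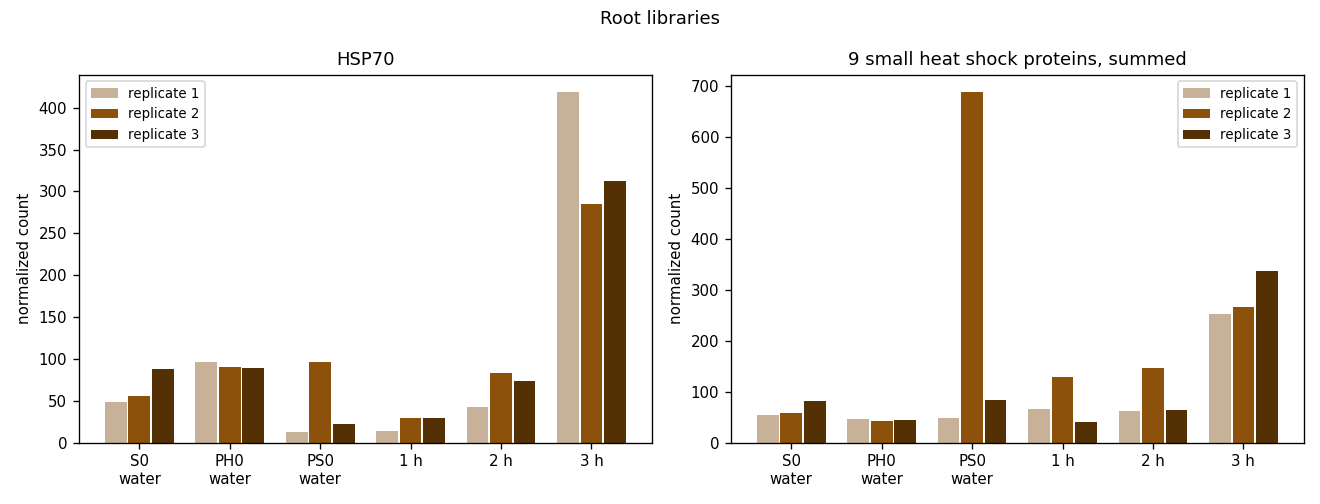
Normalized counts (y axis) of HSP70 (left) and of 9 small heat shock proteins summed (right) in the 18 root libraries, by group (x axis) and replicate (shade). PS0 replicate 2 stands at 96.5 on the left, beside PH0 roots at 89.4 to 96.3, and at 687.1 on the right. The 3 h libraries are highest for HSP70, at 284.6 or more.

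HSP101, the disaggregating chaperone, was called in roots at 3 h at low counts. PS0 roots held 4, 10.6 and 0 normalized counts, 1 h 1.3, 0 and 2.5, 2 h 7.9, 7.7 and 11.2, and 3 h 24.7, 14.3 and 21.1. The 3 h libraries were above all other root libraries. The log2 change of HSP101 was 2.41 ± 0.69 at 3 h (adjusted p = 0.0445), and 3.36 ± 0.69 between 1 h and 3 h (adjusted p = 0.0163). Leaving out PS0 replicate 2, the highest PS0 library, could only raise the 3 h change, and gave 3.20 (adjusted p = 0.0091). The call at 3 h was lost without PS0 replicate 1 (0.058) or 3 (0.207), without 3 h replicate 1 (0.136), 2 (0.0815) or 3 (0.117), with edgeR (0.0665) and with depth as a covariate (log2 change 1.67, adjusted p = 0.0652), in all in 12 of 18 alternative settings. The call between 1 h and 3 h was lost without 1 h replicate 1 (0.0517) or 3 h replicate 1 (0.0884) or 3 (0.0628). In shoots HSP101 had 7.1, 6.1 and 3.4 in PS0 and 7.4, 7.1 and 5.5 at 3 h, a log2 change of 0.27 ± 0.53 (adjusted p = 0.793). Between 1 h and 3 h of treatment 3 members rose in roots, HSP70, HSP101 and HSFB1, and 1 in shoots, HSP70, where 1.00% and 2.98% of all tested genes were called higher.

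HSP90.1, the heat-inducible cytosolic HSP90, passed the filter in neither tissue. Its highest value was 4.5 normalized counts, in a shoot library of 2 h that corresponds to 1 read, and at 3 h the root libraries had 1.4, 0.6 and 0. HSP90.1 was therefore not tested. The S0 roots, with 2.5, 3.2 and 3.8, lay above every treated root library, while the PS0 roots had 0, 4.4 and 0. Hsp70-2, a cytosolic HSP70 that Arabidopsis also makes without heat, differed little between PS0 and treated roots. PS0 roots had 20.2, 13.3 and 18.6 normalized counts of Hsp70-2 and 3 h roots 14, 13.6 and 13.4, a log2 change of -0.30 ± 0.31 (adjusted p = 0.641). In shoots the change at 3 h was 0.31 ± 0.86 (adjusted p = 0.859).

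The water sets differed for Hsp70-2 more than treated roots differed from PS0. S0 roots had 49.5, 72.8 and 82.1 normalized counts of Hsp70-2 and PH0 roots 153.6, 125.8 and 148.6, so that the 3 water sets did not overlap. PS0 was lower than S0 by a log2 difference of -1.90 and lower than PH0 by -2.98, and limma's moderated F test over the 3 sets gave an adjusted p of 1.48e-04. HSC70-1, the nearly identical gene next to Hsp70-2, had between 5241.9 and 5731.7 in PH0 roots, between 2746.2 and 3085.3 in S0 and between 2049.3 and 3853.3 in PS0. Reads of so similar genes may be split by the counting, so the Hsp70-2 level is uncertain. Hsp70-2 was the 1 member of 8 called among root water sets, where 5.92% of all genes were called. Among shoot water sets HSFB1 (adjusted p = 0.0123) and HSP101 (adjusted p = 0.0433) were called, 2 of 6 members, and 25.5% of all genes. The HSP101 call was lost in 14 of 19 alternative settings, among them leaving out PH0 replicate 1 (adjusted p = 0.166), the shallowest library, whose 33.3 normalized counts are 3 reads. It was also lost without S0 replicate 1 (0.0985), 2 (0.0852) or 3 (0.0529), PS0 replicate 2 (0.058) or PH0 replicate 3 (0.0578). The HSFB1 call was lost without shoot PS0 replicate 2 (0.0528). Without root PS0 replicate 2 HSP70 was also called among the root water sets (adjusted p = 0.00624).

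Several root results depended on which water libraries served as control. Against the 6 S0 and PH0 roots together, 2 members were higher at 1 h (HSFA6B and HSFB2A), 3 at 2 h (these and HSFB1) and 4 at 3 h (these and HSP70), where 5.79%, 5.51% and 8.08% of all genes were called higher. HSFA6B, which is in each of these counts, passed the filter through treated libraries alone. Lower were HSP70, HSP101 and Hsp70-2 at 1 h and Hsp70-2 at 2 h and 3 h, where 14.9%, 9.80% and 16.0% of all genes were called lower. HSP70 changed by -1.69 ± 0.45 at 1 h (adjusted p = 0.0141), by -0.24 ± 0.45 at 2 h (adjusted p = 0.766) and by 2.13 ± 0.45 at 3 h (adjusted p = 0.00235). Hsp70-2 changed by -2.70, -3.05 and -2.75 at the 3 times, HSP101 by -1.82 ± 0.60 at 1 h (adjusted p = 0.0397) and by 1.54 ± 0.60 at 3 h (adjusted p = 0.0691). HSFB1 changed by 1.43 ± 0.18 at 3 h and HSFA6B by 3.55 ± 0.59, close to their values against PS0. HSFA6B was at 1.9 or less in every root water library, so its change could hardly depend on the water set. In shoots 2, 3 and 3 members were higher against S0 and PH0 at 1, 2 and 3 h, HSP70 and HSFB1 at each time and HSFB2A from 2 h, beside 8.14%, 10.5% and 11.7% of all genes. What set the water libraries apart was not tested.

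**Figure D5:**
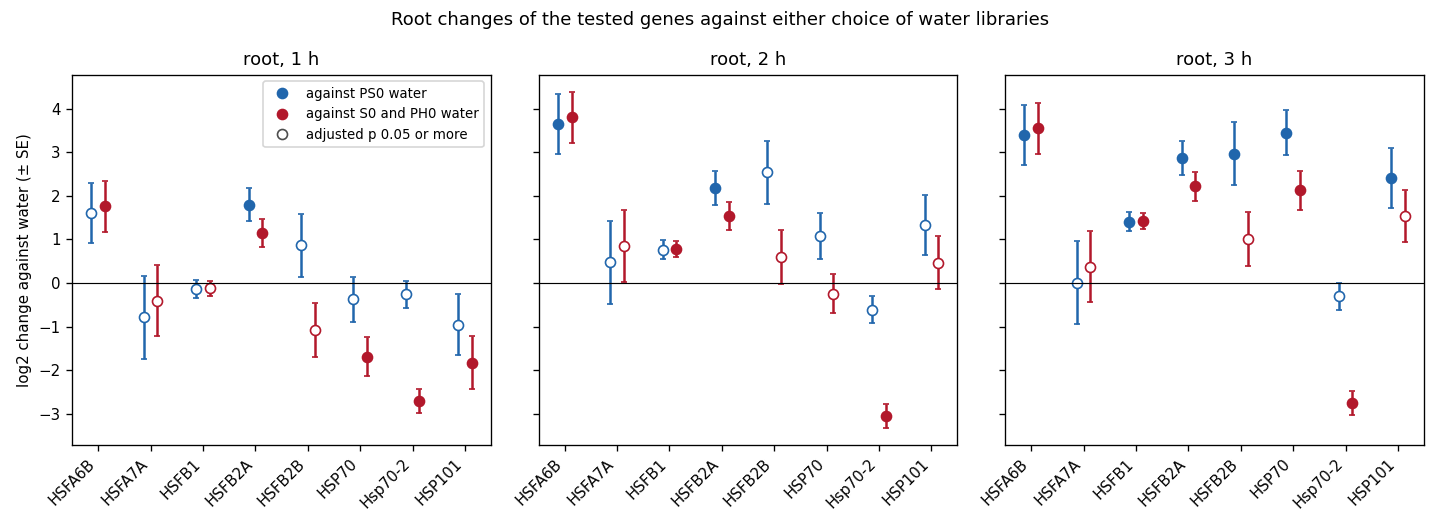
log2 change of the 8 tested members in roots (y axis, ± SE) at 1, 2 and 3 h against PS0 water (blue, n = 3) or against S0 and PH0 water together (red, n = 6). Filled points were called. Hsp70-2 moves from -0.30 to -2.75 at 3 h with the choice of water, and HSFA6B and HSFB1 keep about the same value.

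Root and shoot differed in water for 4 of the 8 tested members. HSFB1 was higher in roots by 2.59 ± 0.13 (adjusted p = 6.08e-18), with values from 295 to 390.4 in 9 root and from 31.9 to 101 in 9 shoot water libraries, which did not overlap. HSP70 was higher by 1.76 ± 0.25 (adjusted p = 2.97e-07) and Hsp70-2 by 1.66 ± 0.40 (adjusted p = 4.78e-04). Both overlapped between tissues through PS0 root libraries. HSFB2A was lower in roots, by -0.58 ± 0.22 (adjusted p = 0.0211), and this was lost without any 1 of 4 libraries, root S0 replicate 2 (0.0602), root PS0 replicate 2 (0.0603), shoot PS0 replicate 2 (0.0613) or shoot PH0 replicate 3 (0.0686). Without root PS0 replicate 1 HSFA7A was also called higher in roots (0.94, adjusted p = 0.0432), and without root PS0 replicate 2 HSP101 was called lower (-0.75, adjusted p = 0.0453). Of all 13218 genes 46.6% were higher and 22.8% lower in roots, 9163 in all. The median log2 difference over all of them was 0.58, toward roots.

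Whether the response to PEG with SHAM differed between the tissues was tested directly as an interaction for the 6 members tested in both. No member was called at 1, 2 or 3 h, where 0.348%, 2.63% and 3.83% of 9191 genes were called. At an unadjusted p under 0.05 there were 2 members at 1 h, 1 at 2 h and 2 at 3 h, and DESeq2 on the recovered reads called 2 at 1 h. The root response minus the shoot response was -1.58 ± 0.62 for HSP70 at 1 h (adjusted p = 0.465) and 1.09 ± 0.62 at 3 h (adjusted p = 0.396). For HSFB1 it was -1.03 ± 0.31 at 1 h (adjusted p = 0.198) and 0.38 ± 0.31 at 3 h (adjusted p = 0.602), and for HSP101 2.14 ± 0.86 at 3 h (adjusted p = 0.178). These errors leave room for sizeable differences, and the test does not show that the tissues responded alike. Without root PS0 replicate 2 the 3 h difference was 1.92 for HSP70 (adjusted p = 0.0208) and 2.93 for HSP101 (adjusted p = 0.038). That library was the highest PS0 root library for both genes, so leaving it out could only raise these differences. Taken from S0 and PH0 water, the 3 h difference was -0.70 ± 0.54 for HSP70 (adjusted p = 0.455). It was then -0.42 ± 0.27 for HSFB1 (adjusted p = 0.355) and 1.80 ± 0.74 for HSP101 (adjusted p = 0.114). The sign for HSP70 and HSFB1 thus depended on the water set. With S0 and PH0 as control 3 members were called at 1 h and 2 h (HSP70, HSFB1 and Hsp70-2) and 1 at 3 h (Hsp70-2), all with the lower change in roots, beside 10.9%, 11.6% and 12.5% of all genes.

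Other genes of the heat shock network were read from 7 lists covering the other heat shock factors, the HSP70, HSP90 and ClpB families, small heat shock proteins, co-chaperones and folding in the endoplasmic reticulum, with 64 genes in the table. In roots 55 were tested: 0 were called at 1 h by limma (9 at an unadjusted p under 0.05), 4 rose at 2 h and 11 at 3 h. Against PS0, limma and edgeR called none lower (with limma 4, 0 and 2 were lower at an unadjusted p under 0.05), and DESeq2 called 1 lower at 1 h and at 2 h. Their median log2 change was 0.15 at 3 h, beside -0.16 over all genes and 2.64 over the tested members. In shoots 49 were tested: 0 were called at 1 h by limma (4 at an unadjusted p under 0.05, and 1 called by edgeR or DESeq2), 4 rose and 2 fell at 2 h, and 7 rose and 6 fell at 3 h. Genes called lower made up 5.06% of all tested shoot genes at 2 h and 7.37% at 3 h. Of the 7 tested genes of folding in the endoplasmic reticulum 3 fell in shoots at 3 h against PS0, but none of those 3 was called against S0 and PH0 water, where limma called 2 others of the 7 higher. The water sets themselves differed for 4 of these 7 genes. Set against S0 and PH0 water after 2 h, 15 of the 49 shoot genes were called higher and 1 lower, beside 10.5% and 16.8% of all tested genes. After 3 h the same contrast called 18 higher and 2 lower, beside 11.7% and 17.3% of all genes. Among the 55 root genes that contrast called 2 higher and 11 lower after 1 h, beside 5.79% and 14.9% of all genes. It called 5 higher and 10 lower after 2 h, beside 5.51% and 9.80%. After 3 h it called 7 higher and 9 lower, beside 8.08% and 16.0%.

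The 3 called genes of these lists with the largest changes at each time are described next. HSFA3, a class A factor that acts downstream of DREB2A in Arabidopsis, had 3, 2.7 and 0 normalized counts in PS0 roots, 20.3, 30.8 and 21.9 at 2 h and 29.9, 28.5 and 20.1 at 3 h, with no overlap. Its root log2 change was 3.34 ± 0.53 at 2 h (adjusted p = 0.00122) and 3.45 ± 0.53 at 3 h (adjusted p = 3.93e-04). HSFC1, the single class C factor, had a mean of 25.9 ± 8.06 normalized counts (SD, n = 3) in PS0 shoots, single libraries of 281.2, 318.8 and 257 at 2 h and 503.5, 394.9 and 416.8 at 3 h. Every treated library of HSFC1 at these times was above water, with a log2 change of 3.46 ± 0.79 at 2 h (adjusted p = 0.00756) and 4.07 ± 0.79 at 3 h (adjusted p = 0.00131) in shoots and of 1.56 ± 0.25 in roots at 2 h (adjusted p = 0.00123). HSFA1E, of the group of master activators of the heat response, rose in shoots by 2.82 ± 0.70 at 2 h (adjusted p = 0.0132) and by 2.94 ± 0.70 at 3 h (adjusted p = 0.00717), from 0, 0 and 1.7 normalized counts in PS0 to 11.9, 11.6 and 6.5 at 3 h. Every 3 h shoot library of HSFA1E reached the value that the filter asks for, and no PS0 shoot library did. Treated libraries alone could thus carry HSFA1E past the filter, as with HSFA6B in roots. It could hardly be tested without differing from PS0, which limits what its adjusted p-values show. The 2 h call of HSFA1E was lost without shoot PS0 replicate 1 (0.0597) or 2 (0.0637) or 2 h replicate 2 (0.0719).

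Among chaperones and partners, HOP2, which links HSP70 with HSP90, rose in roots at 2 h by 1.52 ± 0.32 (adjusted p = 0.0131), lost without root PS0 replicate 3 (0.0675) or 2 h replicate 2 (0.0554) and against S0 and PH0 water (0.29, adjusted p = 0.543). HSP17.8-CI, a cytosolic small heat shock protein, had 5.1, 92.1 and 3.1 normalized counts in PS0 roots and 177.7, 188.7 and 224.3 at 3 h. It did not overlap with water and rose by 3.89 ± 0.85 (adjusted p = 0.00858), a call lost without PS0 replicate 3 (0.053). Leaving out PS0 replicate 2, the highest PS0 library, could only raise the change, which was then 5.30. HSP23.5, a mitochondrial small heat shock protein, rose in roots at 3 h by 3.14 ± 0.78 (adjusted p = 0.0196), lost without PS0 replicate 3 (0.0883) or 3 h replicate 1 (0.0742) or 3 (0.0862), and against S0 and PH0 water (1.81, adjusted p = 0.058). In shoots Hsp70b rose at 2 h by 2.17 ± 0.66 (adjusted p = 0.045), a call at 9 normalized counts or fewer that any 1 of 5 of the 6 libraries left out ended, with adjusted p from 0.0741 to 0.195. HSP15.4 fell in shoots at 3 h by 3.75 on the log2 scale (SE 1.01, adjusted p = 0.0172), from 49.4, 12.2 and 6.7 to 0, 0 and 1.1. That call was lost without shoot PS0 replicate 1 (0.108) or 3 h replicate 1 (0.0609) or 2 (0.062), and S0 shoots had 287.5, 214.6 and 47.9.

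The genes with the most similar pattern over the 12 groups were sought for HSP70 and HSFB1, the chaperone and the factor with the highest mean count, among 8490 genes reaching a group mean of 20. For HSP70 they were MUR4, a UDP-arabinose epimerase of the cell wall (r = 0.94), SPS2F, a sucrose phosphate synthase (r = 0.90), and SR45a, a splicing factor (r = 0.88). MUR4 had means of 20.1 normalized counts in PS0 roots and 67.3 in 3 h roots, and 18.1 and 35.3 in shoots. For HSFB1 they were bZIP7, AT5G01380 and the homeobox gene HB-2, each with r = 0.98. These Pearson correlations of group means of log2 counts describe the 12 groups, which share the tissue difference and the water sets, and carry no test.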

How the data were processed

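RNA of roots and shoots was counted by MARS-seq, which reads transcript 3′ ends. The authors deposited 1 table of normalized signal: gene counts divided by 1 size factor per library and rounded to 0.1, which the values themselves show. Per the submitters' processing notes the tools included STAR 2.4.2a, HTSeq, DESeq2, cutadapt and bcl2fastq, with no role stated. The build, annotation, handling of molecular identifiers and strand: not given in the sources used here. Reads of near-identical or overlapping genes may be mixed.

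Whole reads were recovered from the step between low values of each library. In each library 99.994% or more of its values were whole multiples of that step, to a tolerance of 0.05, and these reads gave the depth. The number of reads limits the precision of low genes.

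The main test was limma 3.58.1 (R 4.3.3) with a mean-variance trend on log2(value + 1), which understates changes of low genes. All 6 groups of a tissue, or 12 of both, were fitted together. Genes reaching 5 in at least 3 libraries were tested, and an adjusted p under 0.05 was a call. Recovered reads were tested with edgeR 4.0.16 and DESeq2 1.42.0 as alternatives: of 11950 root genes at 3 h against PS0, limma called 784, edgeR 782 and DESeq2 987. Scripts were tested on simulated data. Replicates are the labels' biological replicates, and p-values measure the spread between them.

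The members, gene lists and rule for named genes were chosen with earlier results of these data known. Named genes are the 10 members, the 3 called genes of the other lists with the largest absolute log2 change per tissue and time, and the 3 genes most correlated with HSP70 and HSFB1 over group means. Any other gene was named after its values were seen. Promoters came from RefSeq, assembly TAIR10.1.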

Additional observations from a re-analysis of the deposited data

Results flagged for a closer look

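HSFA3, which is not among the 10 members but was named for its size of change, had a response that differed between the tissues by limma's interaction test. The root response minus the shoot response was 2.56 on the log2 scale at 2 h (adjusted p = 0.0127) and 2.53 at 3 h (adjusted p = 0.0106), with 3 libraries per group. In shoots HSFA3 had a mean of 16.1 ± 3.41 normalized counts (SD, n = 3) in PS0 water and 32.7, 31.7 and 28.4 at 3 h. PS0 roots had 3, 2.7 and 0, and 3 h roots 29.9, 28.5 and 20.1. Fitting only the compared groups gave an adjusted p of 0.158 at 2 h and 0.0651 at 3 h. None of the 6 members tested in both tissues was called for such a difference in the main test. The other members, HSFA6B among them, were not tested for it.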

How the results depend on the processing

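Counts in this section are of members called higher. For water sets and the tissue difference they are of members called in either direction. When only the compared groups were fitted the count was 0 for root 1 h, 1 for root 2 h, 1 for root 3 h against 1 h, 2 for root water sets, 1 for shoot 2 h, 2 for shoot 3 h against 1 h and 0 for shoot water sets. Against S0 and PH0 water, or all 3 sets, root 1 h and shoot 1 h each gave 2, and the tissue difference 3 or 2 at 1 h, 3 or 2 at 2 h and 1 at 3 h. Root 1 h also had 3 members called lower against S0 and PH0, and 1 against all 3 sets. DESeq2 gave 4 for root 2 h and 2 for the tissue difference at 1 h. edgeR and DESeq2 gave 2 for shoot 1 h, 2 for shoot 3 h against 1 h and 1 for shoot water sets. TMM gave 0 for shoot 2 h, 0 for shoot 3 h against 1 h and 1 for shoot water sets. Without the filter the counts were 0 for shoot 3 h against 1 h and 1 for the tissue difference at 2 h. Quantile normalization gave 0 for shoot 3 h against 1 h, and a pseudocount of 0.5 or a depth covariate 1 for shoot water sets. The cause was not tested.

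Leaving out 1 library gave 0 to 1 for root 1 h, 2 to 3 for root 2 h, 4 to 6 for root 3 h, 2 to 3 for root 3 h against 1 h, 1 to 2 for root water sets, 0 to 2 for shoot 2 h, 3 for shoot 3 h, 0 for shoot 3 h against 1 h, 0 to 2 for shoot water sets, 3 to 4 for roots against shoots in water and 0 to 2 for the tissue difference at 3 h.

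Within a tissue, libraries of the same replicate number did not deviate together on average. Over 45 pairs each the mean r was 0.041 in roots, from -0.472 to 0.51, and 0.001 in shoots, from -0.222 to 0.494. Of the libraries, 6 of 18 in roots and 8 of 18 in shoots were closest to their own number, so no pairing by number was seen over a tissue as a whole. Pairing between single groups was not tested. Whether root and shoot libraries of the same number came from the same seedlings was not tested. The comparisons of root with shoot treat them as independent. With a replicate block the count was 0 for shoot 3 h against 1 h and 1 for shoot water sets, and 35 of 39 single-gene results kept their side of the threshold. Those lost were HSP101 in roots at 3 h (adjusted p = 0.0595) and among shoot water sets (0.0505), HSP70 in shoots at 3 h against 1 h (0.0545) and Hsp70b in shoots at 2 h (0.0541). Of 746 single-gene values under all alternatives, 647 kept direction and call, 99 lost the call and none reversed. These 39 results were followed because the main test called them, and water-set tests have no direction, so a reversal was unlikely beforehand. Results not called could reverse: HSP70 in roots at 2 h changed by 1.08 against PS0 and by -0.24 against S0 and PH0. Low reads limit HSFA2, HSFA6B, HSFA7A, HSFB2B, HSP90.1 and HSP101. The PS0 roots held 2 HSFA6B, 5 HSFB2B and 16 HSP101 reads in all.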
